A study of Mus musculus with 14 samples.

Results

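Nearly all genes described here encode proteins of the cornified envelope, the cross-linked protein shell of keratinocytes at the end of squamous differentiation. Members were all genes whose symbol begins with Lce or Sprr followed by a digit, together with Flg, Flg2, Hrnr, Rptn, Tchh, Tchhl1, Crnn, Ivl, Lor and Crct1. This rule, which uses symbols and no measured value, found 48 of the 55291 genes in the count tables. They comprise 21 Lce genes, 17 Sprr genes, 7 genes of the fused S100 group (Flg, Flg2, Hrnr, Rptn, Tchh, Tchhl1 and Crnn) and 3 single envelope genes (Ivl, Lor and Crct1).

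As keratinocytes of a stratified squamous epithelium move from the basal layer to the surface, transglutaminases join small soluble proteins into an insoluble layer beneath the cell membrane. Involucrin (Ivl) is an early scaffold of this layer, while loricrin (Lor), the small proline-rich proteins (Sprr) and the late cornified envelope proteins (Lce) are joined to it later. The fused S100 proteins, which carry a calcium-binding S100 domain before a long repeat region, include filaggrin (Flg), hornerin (Hrnr) and repetin (Rptn), and the genes lie together in a cluster called the epidermal differentiation complex.

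Bulk RNA-Seq was performed on peeled esophageal epithelium and on esophageal stroma of wild type C57BL/6 mice without any treatment. Aged mice are labelled as 18 months or older and young mice as 4 months or younger. The 9 epithelial libraries came from 5 aged mice (O1, O2, O3, OF5 and OM8) and 4 young ones (Y1, Y3, YF5 and YM4). Stroma was sequenced from 5 of these mice, namely O1, O2 and O3 among the aged and Y1 and Y3 among the young. The comparisons asked in which layer the members were transcribed and whether their levels in the epithelium differed between aged and young mice. The epithelial sheet is what remained after the muscle layers had been peeled off, and each library is 1 mouse. In such bulk tissue, fewer cells of a type and less RNA per cell cannot be told apart.

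Total counts ranged from 8217516 to 21867101 per library. The 4 mice with epithelium only (OF5, OM8, YF5 and YM4) had 1042394 to 1433857 counts in protein-coding genes. The epithelial libraries of the mice with both layers had 7971284 to 11067320. Total counts differed less, at 8217516 to 9399448 against 16477424 to 21867101. The factors of TMM scaling were 0.256 to 0.506 in the 4 mice and 1.29 to 1.74 in the others. Values of the 4 mice therefore carry more counting error, and their libraries also differ in composition. Normalized counts are CPM on the TMM-adjusted library size, on which 3 counts, the floor used here for detection, correspond to 0.0872 to 1.25 normalized counts in epithelium and 0.115 to 0.175 in stroma. Markers of the layers followed the labels: all 10 basal and suprabasal keratinocyte markers examined were higher in epithelium and all 6 skeletal muscle markers were lower by edgeR. Smooth muscle and fibroblast markers separated the layers less, since 3 of 4 and 3 of 6 of them were not called.

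All 48 members lie on chromosome 3 in GRCm38, in the interval 92080271 to 93471980, which spans 1391.7 kb from Lor to Tchhl1. The annotation places 56 protein-coding genes in this interval, and 46 of them are members. The remaining members are Sprr2c-ps, annotated as a processed pseudogene, and Sprr2g, annotated as a polymorphic pseudogene. Sprr2j-ps is annotated as protein-coding despite its symbol. The Sprr genes lie beside Lor, the Lce genes follow in the middle, and the fused S100 genes occupy the other end. Many members are near copies of each other, which limits how reads can be assigned. Of all 50-base windows in the longest Sprr2a1 and Sprr2a2 transcripts, 96.3% and 96.5% also occur in another gene, the gene models overlap on the same strand, and the value for Sprr2a3 is 61.1%. Shared windows make up 12.1% to 49.3% of the Lce3 transcripts, with the highest share in Lce3d and the lowest in Lce3b. Values of single Sprr2a and Lce3 genes are therefore uncertain, and differences within these families are less certain than those of the family.

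Promoter sequence is shown for some members with high counts, for pairs within the Lce3 and Lce1 families, and for low members of the Sprr2 family. RefSeq promoter windows in GRCm38.p6 were matched for 43 of 48 members. In the 250 bases before the start, TATAAA (the letters of a TATA box) was searched on both strands and found in 20 of 43 members (46.5%), against 12.4% of 32851 promoters. TGANTCA, the letters recognised by AP-1 factors, occurred in 16 of 43 members (37.2%) against 6.7% of all promoters. A further string, ATAAAA, was chosen after the windows had been read and overlaps TATAAA where the letters are TATAAAA. It began between positions -40 and -16 in 27 of 43 members (62.8%) against 2.7% of all promoters. These matches describe letters and show no factor binding, and windows of near copies are not separate observations.

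The upstream bases of 4 members with high counts, not corrected for length, follow. Per kb of exon Hrnr, with 85.4 normalized counts in epithelium, was below several members not shown, such as Lce3c, Crct1 and Sprr1a. Bases are given 5′ to 3′ in the direction of transcription and up to the base before the RefSeq start. Capitals mark TATAAA and TGANTCA.
Rptn (chr3:93393579-93393698, plus strand): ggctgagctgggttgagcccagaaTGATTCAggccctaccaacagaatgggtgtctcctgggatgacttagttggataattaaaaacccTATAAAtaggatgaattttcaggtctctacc
Sprr3 (chr3:92458721-92458840, minus strand): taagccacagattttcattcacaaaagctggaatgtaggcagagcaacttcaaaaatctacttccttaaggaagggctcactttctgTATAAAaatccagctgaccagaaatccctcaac
Hrnr (chr3:93319629-93319748, plus strand): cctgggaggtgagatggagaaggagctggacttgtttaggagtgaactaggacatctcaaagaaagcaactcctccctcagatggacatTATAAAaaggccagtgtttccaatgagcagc
Lor (chr3:92083143-92083262, minus strand): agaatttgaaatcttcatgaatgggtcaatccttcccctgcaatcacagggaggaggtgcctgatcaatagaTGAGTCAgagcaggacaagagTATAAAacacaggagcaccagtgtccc
TATAAA begins at position -31 in Rptn and Hrnr, at -33 in Sprr3 and at -27 in Lor, counted back from the start.

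The Lce windows are shown because the Lce1 and Lce3 families share their letters near the start. The string ATAAAA began between positions -40 and -16 in 12 of 13 Lce1 windows and 5 of 6 Lce3 windows. TGANTCA was in 0 of these 19 windows, but most promoters lack it too, since 6.7% of all held it. Capitals mark ATAAAA, with TATAAAA where both strings overlap.
Lce3f (chr3:92992097-92992216, plus strand): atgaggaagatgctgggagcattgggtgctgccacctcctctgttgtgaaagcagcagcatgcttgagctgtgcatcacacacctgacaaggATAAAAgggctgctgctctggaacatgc
Lce3e (chr3:92966941-92967060, plus strand): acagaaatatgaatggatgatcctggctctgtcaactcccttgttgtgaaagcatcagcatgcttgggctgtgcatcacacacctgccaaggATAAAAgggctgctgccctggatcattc
Lce1c (chr3:92679127-92679246, plus strand): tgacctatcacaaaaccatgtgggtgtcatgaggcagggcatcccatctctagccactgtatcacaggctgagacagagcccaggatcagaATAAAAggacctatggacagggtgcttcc
Lce1d (chr3:92687211-92687330, minus strand): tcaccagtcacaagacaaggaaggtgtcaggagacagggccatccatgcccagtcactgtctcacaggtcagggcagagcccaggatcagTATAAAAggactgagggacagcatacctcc
The Lce3e and Lce3f windows are 61.0% identical over 250 bases, those of Lce1c and Lce1d 62.9%.

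The Sprr2 windows are shown because levels per kb differ widely within this family. TATAAA at position -29 and TGANTCA were found in 7 of 10 Sprr2 windows, which are those of Sprr2b, Sprr2d, Sprr2e, Sprr2f, Sprr2h, Sprr2i and Sprr2k. None of the windows of Sprr2a1, Sprr2a2 and Sprr2a3, which include the 2 members of this family with the highest level per kb, held either string before the RefSeq start, which need not be the start used in this tissue. In Sprr2d and Sprr2e, TGANTCA begins at position -193, and in Sprr2h at -198.
Sprr2d (chr3:92338940-92339139, plus strand): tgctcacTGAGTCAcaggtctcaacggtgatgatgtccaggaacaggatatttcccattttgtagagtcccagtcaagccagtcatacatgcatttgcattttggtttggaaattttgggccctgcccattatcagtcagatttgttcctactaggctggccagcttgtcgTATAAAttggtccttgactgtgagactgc
Sprr2e (chr3:92351943-92352142, plus strand): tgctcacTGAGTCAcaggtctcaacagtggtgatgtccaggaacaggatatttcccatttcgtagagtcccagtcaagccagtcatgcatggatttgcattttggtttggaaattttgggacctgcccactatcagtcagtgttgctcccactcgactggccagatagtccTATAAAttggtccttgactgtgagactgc
Sprr2h (chr3:92385485-92385684, plus strand): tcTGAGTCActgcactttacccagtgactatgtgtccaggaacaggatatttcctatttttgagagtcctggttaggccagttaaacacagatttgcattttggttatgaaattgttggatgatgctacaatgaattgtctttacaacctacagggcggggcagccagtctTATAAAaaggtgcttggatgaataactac
The 250 bases before Sprr2d and Sprr2e are 89.3% identical and those before Sprr2a1 and Sprr2d 52.8%, whereas Sprr2a1 and Sprr2a2 did not differ at any base.

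**Figure D1:**
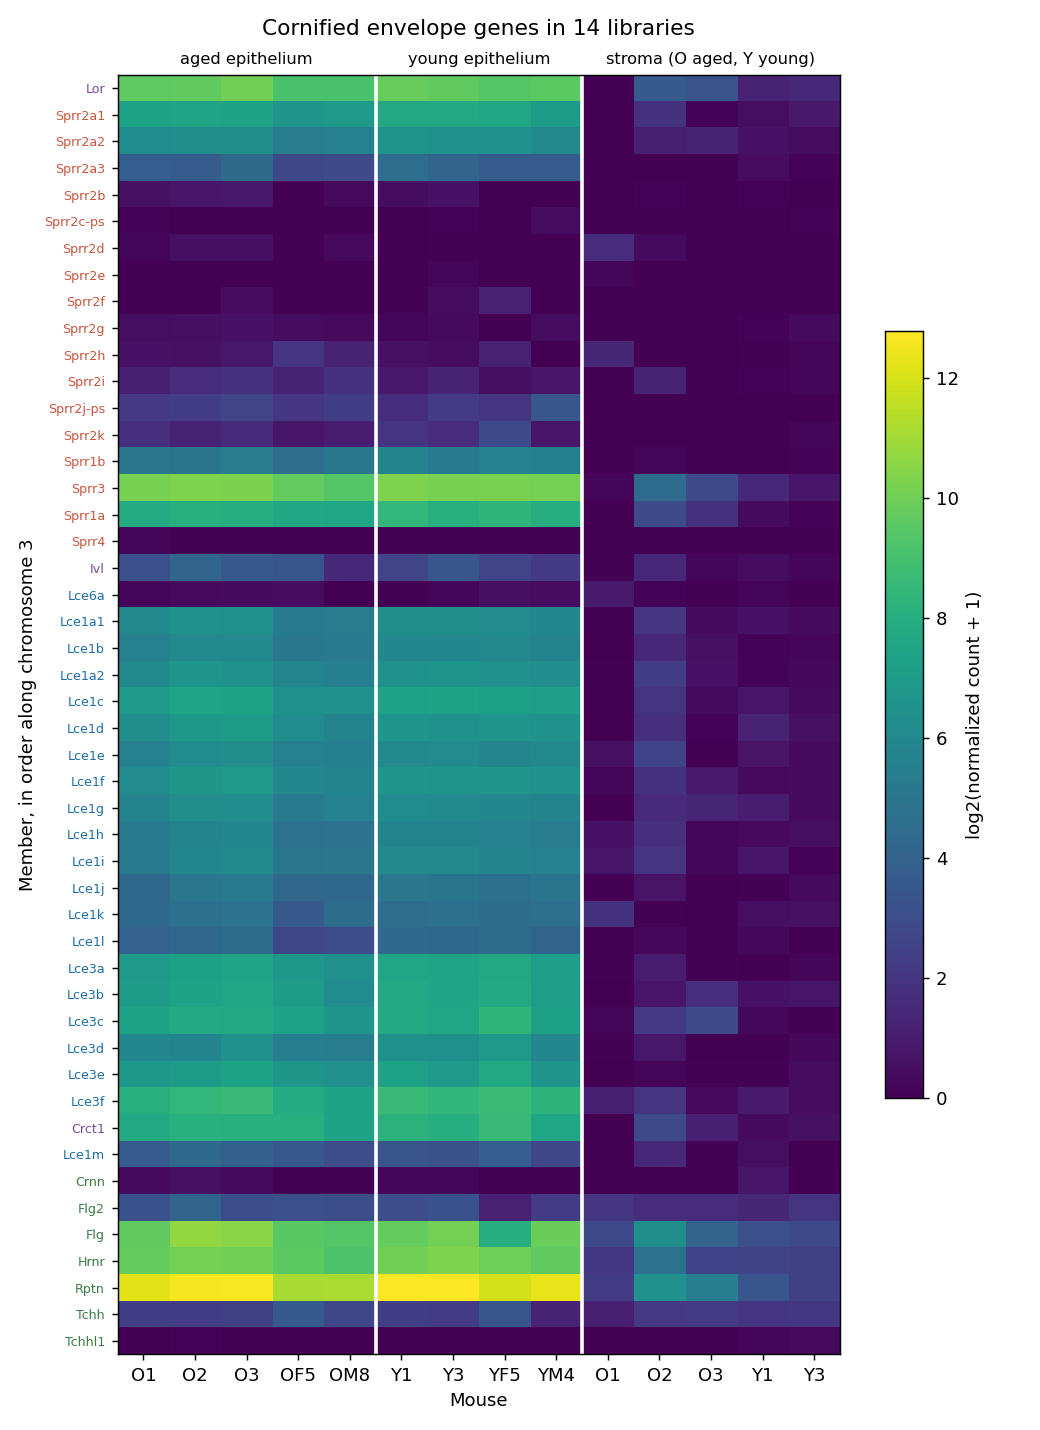
Colour gives log2(normalized count + 1) of each of the 48 members (rows, in order along chromosome 3, label colour by role: Lce blue, Sprr red, fused S100 green, Ivl, Lor and Crct1 purple) in each of the 14 libraries (columns by mouse). Epithelial columns are bright for most members and stromal columns dark, with O2 the brightest stromal library, and a block of Sprr2 genes, Sprr4, Lce6a, Crnn and Tchhl1 is dark in both layers.

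Transcripts of the members made up 1.87% to 4.56% of all protein-coding counts in epithelium (median 3.39%, n = 9) and 0.00719% to 0.0891% in stroma (n = 5). The sum of their normalized counts was 6419 to 14493 in epithelium and 27.9 to 293.9 in stroma, so that the layers did not overlap. Between layers, 38 of 48 members passed the filter on low counts and were tested with edgeR over all 14 libraries. Of these, 36 were higher in epithelium and 0 were lower, where 26.1% of all 16791 genes tested were higher and 30.1% were lower. The median log2 fold change, epithelium minus stroma, of the 38 members was 6.71, and it was 6.69 with Sprr2j-ps, which had 0 counts in stroma, set at its bound. The median of all genes tested was -0.051. Without mouse O2 the median of the members was 7.69, and 24 of the 36 members called had a fold more than 1.5 times as large. In 34 of the 38 members the lowest epithelial library lay above the highest stromal one, as in 14.4% of all genes tested, and 32 members had a log2 fold change of at least 5, as had 2.35% of all genes. A member tested mainly because of its epithelial counts had to differ, so these counts cover the members that could be tested and not all 48.

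The 10 members that did not pass the filter were Sprr2b, Sprr2c-ps, Sprr2d, Sprr2e, Sprr2f, Sprr2g, Sprr4, Lce6a, Crnn and Tchhl1. Crnn encodes cornulin, an abundant protein of human esophageal epithelium, but its counts in these libraries were few. Crnn had 0 to 16 counts per epithelial library and 14 counts in the stroma of Y1. Sprr2d had at most 14 counts in any epithelial library and 36 in the stroma of O1. No member was under 3 counts in every library.

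Levels were ranked across members per kilobase of exon, and other levels in normalized counts are not corrected for length. Rptn (ENSMUSG00000041984.2, chr3:93393699-93399442, 3 exons) had the highest level in epithelium, with 1215 ± 449 normalized counts per kb (SD, n = 9), rank 4 among 21534 protein-coding genes. Sprr3 followed with 898 ± 170, then Lce3f with 520.5 ± 141 and Lor with 432 ± 89.5. The difference between Rptn and Sprr3 was smaller than the SD of Rptn, and Rptn was higher in 7 of 9 libraries. Sprr3 exceeded Lce3f by more than either SD and in 9 of 9 libraries. Below these, neighbours such as Lce3c (344 ± 110.0), Crct1 (327 ± 88.8) and Sprr1a (320.3 ± 66.9) differed by less than their spread. Among the 200 protein-coding genes with the highest level per kb in epithelium, 24 were members.

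**Figure D2:**
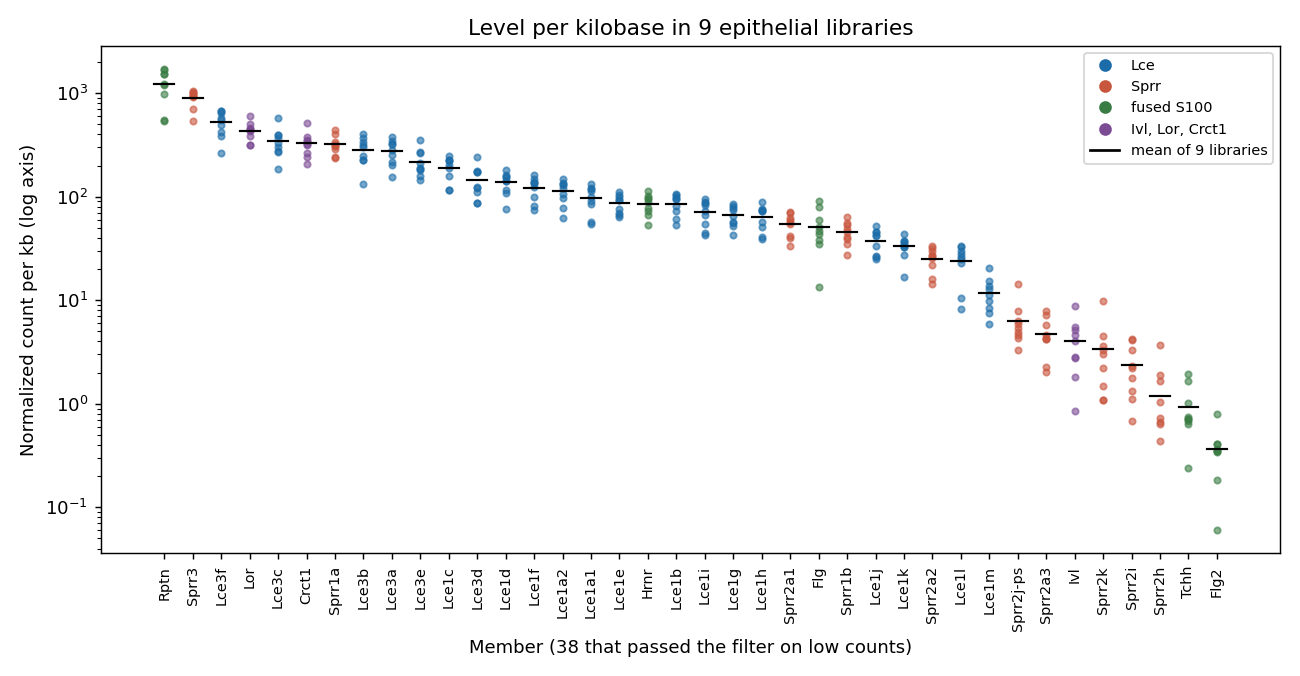
Each point is 1 of 9 epithelial libraries and each bar their mean, in normalized counts per kb of exon on a log axis, for the 38 members that passed the filter, ordered by mean and coloured by role. Rptn (1215) and Sprr3 (898) head the order, the Lce genes fill its middle, and Flg2 (0.362) and Tchh (0.928) stand at its low end.

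Rptn, Hrnr and Flg were the abundant genes of the fused S100 group. Repetin binds calcium and is joined to the envelope. Its gene took 31.4% to 48.9% of all member counts in each epithelial library, not corrected for length. Rptn had 2225, 5081 and 7090 normalized counts as its lowest, median and highest value in epithelium, and 3.68, 86.3, 43.5, 9.86 and 4.37 in the stroma of O1, O2, O3, Y1 and Y3. The layers did not overlap, and the log2 fold change was 7.41 ± 0.87 (SE, adjusted p = 5.77e-07, edgeR). In epithelium the lowest values were those of OF5 and OM8, and in stroma the highest was that of O2.

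Hrnr, whose product resembles filaggrin, had 601, 994 and 1282 normalized counts as lowest, median and highest in epithelium. Its stromal values were 3.21, 25.9, 4.90, 5.16 and 4.33 in the same order of mice, and the log2 fold change was 6.78 ± 0.56 (SE, adjusted p = 2.68e-09, edgeR). Flg, the source of filaggrin monomers that bundle keratin filaments, varied more between mice, from 253 in YF5 to 1702 in O2 with a median of 871. In stroma Flg had 6.18, 83.2, 15.6, 7.59 and 5.99 normalized counts, without overlap with epithelium, and a log2 fold change of 5.33 ± 0.78 (SE, adjusted p = 2.09e-05, edgeR).

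Flg2 and Tchh had a stromal level closer to that of epithelium than Rptn, Hrnr and Flg. Flg2, a filaggrin-like gene, had 1.25, 7.33 and 16.5 normalized counts as lowest, median and highest in epithelium and 3.03, 2.05, 2.07, 1.55 and 2.84 in stroma, so that YF5, with 3 raw counts, lay below all stromal libraries. It was higher in epithelium by a log2 fold change of 1.76 ± 0.38 (SE, adjusted p = 0.000485, edgeR). Tchh encodes trichohyalin, best known from the inner root sheath of the hair follicle. Its values were 1.38, 4.18 and 11.4 in epithelium and 1.11, 3.29, 3.63, 2.99 and 3.15 in stroma. The layers overlapped, and Tchh was not called, with a log2 fold change of 0.87 ± 0.39 (SE, adjusted p = 0.0634, edgeR). Tchh overlaps a lincRNA gene on the opposite strand, as do Hrnr and Rptn, and whether the counting used strand is not given in the sources used here. Tchhl1 had at most 3 counts in any epithelial and 6 in any stromal library.

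Among the Sprr genes, Sprr3, Sprr1a, Sprr2a1, Sprr1b and Sprr2a2 carried most of the level. These genes encode short proline-rich proteins that bridge other envelope proteins. Sprr3, the member long associated with internal squamous epithelia, had 655, 1152 and 1281 normalized counts as lowest, median and highest in epithelium. Its stromal values were 0.117, 21.6, 6.01, 1.65 and 0.709 in O1, O2, O3, Y1 and Y3. The layers were far apart, with a log2 fold change of 7.50 ± 1.02 (SE, adjusted p = 1.26e-05, edgeR).

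Sprr1a had 191, 251 and 352 normalized counts as lowest, median and highest in epithelium, against 0, 6.90, 2.49, 0.310 and 0.0788 in stroma. Sprr1b had 22.7, 37.8 and 53.4 in epithelium and 0, 0.123, 0.0383, 0.0516 and 0.0788 in stroma, and its log2 fold change was 9.12 ± 0.37 (SE, adjusted p = 5.08e-13, edgeR). Sprr1b had 7 counts over the 5 stromal libraries together, so that its exact fold rests on few reads.

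Within the Sprr2 family, levels per kb of exon in epithelium ran from 54.3 in Sprr2a1 and 25.2 in Sprr2a2 over 6.32 in Sprr2j-ps and 4.71 in Sprr2a3 to 0.0327 in Sprr2e. Sprr2j-ps and Sprr2a3 differed by less than their spread. Sprr2a1 had 100.3, 171 and 211 normalized counts as lowest, median and highest in epithelium, and Sprr2a2 had 41.3, 77.7 and 97.5. In stroma, Sprr2a1 had 0, 2.67, 0.0765, 0.413 and 0.827 and Sprr2a2 had 0, 1.15, 1.38, 0.516 and 0.355 in O1, O2, O3, Y1 and Y3, far below every epithelial library. Sprr2a3 had a mean of 13.6 ± 5.64 in epithelium (SD, n = 9). 

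Sprr2j-ps had 2.23 to 9.69 normalized counts in epithelium and 0 counts in all 5 stromal libraries, so that it was at least 31.2-fold higher in epithelium, taking 3 counts per stromal library as the floor. Sprr2i was called by a small margin, with 0.417 to 2.59 normalized counts in epithelium, 0, 1.31, 0, 0.103 and 0.118 in stroma and a log2 fold change of 2.23 ± 0.86 (SE, adjusted p = 0.0340, edgeR). This call was lost without mouse O1, O3, OM8, Y1 or Y3, with adjusted p from 0.0513 to 0.105 (edgeR). Without mouse O2, whose stroma held 32 of its 37 stromal counts, the log2 fold change of Sprr2i was 4.47 (adjusted p = 0.0006, edgeR). Sprr2h had 0 to 2.76 in epithelium and 1.58, 0, 0, 0.0516 and 0.118 in stroma, and was not called, with a log2 fold change of 1.27 ± 1.02 (SE, adjusted p = 0.304, edgeR). Without mouse O1, whose stroma held 27 of its 31 stromal counts, Sprr2h was called with a log2 fold change of 4.13 (adjusted p = 0.00381, edgeR).

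All 20 Lce genes tested were higher in epithelium, and in all 20 the lowest epithelial library lay above the highest stromal one. Late cornified envelope proteins are small proteins rich in cysteine and glycine that join the envelope last. The median log2 fold change was 8.25 over 6 Lce3 genes and 6.30 over 14 Lce1 genes. The families overlapped, since Lce3c (6.49) lay below Lce1c (7.38) in log2 fold change and Lce3d (144) below Lce1c (189) in level per kb, and their difference was not tested. Lce3f had 162, 337 and 415 normalized counts as lowest, median and highest in epithelium and 1.11, 2.79, 0.268, 0.877 and 0.355 in stroma, with a log2 fold change of 8.20 ± 0.56 (SE, adjusted p = 4.72e-10, edgeR).

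Lce3c had 105, 188 and 327 normalized counts as lowest, median and highest in epithelium, and 0.117, 3.33, 6.89, 0.206 and 0.0394 in stroma. Lce3b had 74.7, 169 and 229 in epithelium, and 0, 0.698, 2.37, 0.568 and 0.630 in stroma. Lce3a had 85.6, 156 and 208 in epithelium, and 0.0583, 1.03, 0.0383, 0 and 0.158 in stroma, with a log2 fold change of 9.10 ± 0.70 (SE, adjusted p = 1.04e-08, edgeR). In these genes OM8 was the lowest epithelial library and YF5 the highest, and both are shallow libraries. Lce3e, with a log2 fold change of 9.91 ± 0.49 (SE, adjusted p = 3.25e-12, edgeR), ranged from 87.2 to 215 in epithelium around a median of 116, and had 0, 0.164, 0.0383, 0.0516 and 0.355 in stroma. Lce3d ranged from 42.2 to 120 in epithelium and had 0.0583, 0.781, 0, 0 and 0.197 in stroma. Its log2 fold change was 8.29 ± 0.66 (SE, adjusted p = 2.19e-08, edgeR). Over the 5 stromal libraries together, Lce3e had 15 counts, Lce3d 25 and Lce3a 31, so that their exact folds rest on few reads.

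The Lce1 genes lie in 1 block apart from Lce1m. Lce1c, the highest of them per kb, had 84.1, 147 and 179 normalized counts as lowest, median and highest in epithelium, and 0, 2.75, 0.306, 0.671 and 0.276 in stroma. The other 13 had means in epithelium, not corrected for length, from 11.1 in Lce1m to 93.2 in Lce1d. Lce1m also had the smallest difference between layers of the Lce genes, with a log2 fold change of 4.66 ± 0.78 (SE, adjusted p = 9.14e-05, edgeR). It lies between Crct1 and Crnn, and had 0, 1.68, 0.0383, 0.413 and 0 normalized counts in stroma. Lce6a, the only gene of its family here, had at most 8 counts in any epithelial library and 15 in the stroma of O1.

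Loricrin and Crct1 were abundant and involucrin was not. Lor had 556, 787 and 1064 normalized counts as lowest, median and highest in epithelium and 0, 11.3, 8.61, 1.44 and 1.77 in stroma, with a log2 fold change of 7.37 ± 0.90 (SE, adjusted p = 3.86e-06, edgeR). Crct1, a cysteine-rich gene beside the Lce genes, had 164, 256 and 405 in epithelium and 0, 6.16, 1.19, 0.310 and 0.473 in stroma. Its log2 fold change was 7.28 ± 0.91 (SE, adjusted p = 7.82e-06, edgeR). Ivl had 1.65, 7.79 and 16.8 normalized counts in epithelium and 0.0583, 1.64, 0.153, 0.361 and 0.158 in stroma. The highest stromal value of Ivl lay just under the lowest epithelial one, which was that of OM8, and the log2 fold change was 4.02 ± 0.67 (SE, adjusted p = 5.52e-05, edgeR). Per kb of exon, Ivl reached 4.03 ± 2.34 normalized counts, against 432 ± 89.5 in Lor (SD, n = 9).

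Member transcripts in stroma were followed in the 5 mice with both layers, as a percentage of the same mouse's epithelium. Over the 31 members with a mean of at least 10 normalized counts in epithelium, the median was 0 in O1, 1.72% in O2, 0.265% in O3, 0.259% in Y1 and 0.233% in Y3. Krt13, a keratin of suprabasal esophageal keratinocytes and not a member, stood at 0.0762%, 0.887%, 0.365%, 0.124% and 0.0759% in the same mice. Both were highest in O2. The summed level of the 4 suprabasal markers in stroma was also highest in O2, at 423.9 normalized counts against 44.8 to 205.8 in the other stromal libraries. O2 stood out more in the summed level of 5 keratins of cornified skin (Krt1, Krt2, Krt10, Krt76 and Krt77). Their sum was 150.9 in its stroma, against 1.75 to 13.0 in the other stromal libraries and 216.8 in its own epithelium. The part of epithelial cells in these stromal values was not tested.

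Flg2 and Tchh had higher percentages than any of these 31 members in each mouse. Both had a mean below 10 normalized counts in epithelium, and other such members were not in that set. By mean levels, stroma was 38.9% of epithelium in Sprr2h and 21.2% in Sprr2i, against 30.6% in Flg2 and 52.5% in Tchh. Stromal counts of Sprr2h came mostly from O1 and those of Sprr2i from O2. The other low members tested, Ivl, Sprr2k and Sprr2j-ps, had at most 6.13%. Flg2 in stroma was 36.0%, 12.4%, 28.2%, 21.6% and 33.5% of epithelium in O1, O2, O3, Y1 and Y3, and Tchh was 26.7%, 82.2%, 83.6%, 71.6% and 85.3%. The stromal level of Flg2 was highest in O1 and that of Tchh in O3, whereas Rptn, Flg, Hrnr, Sprr3, Sprr1a and Lor were highest in O2. Among the 31 members, the highest percentage was that of Lce1k in O1, 14.4%, from 45 counts, where the median member had 0.

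**Figure D3:**
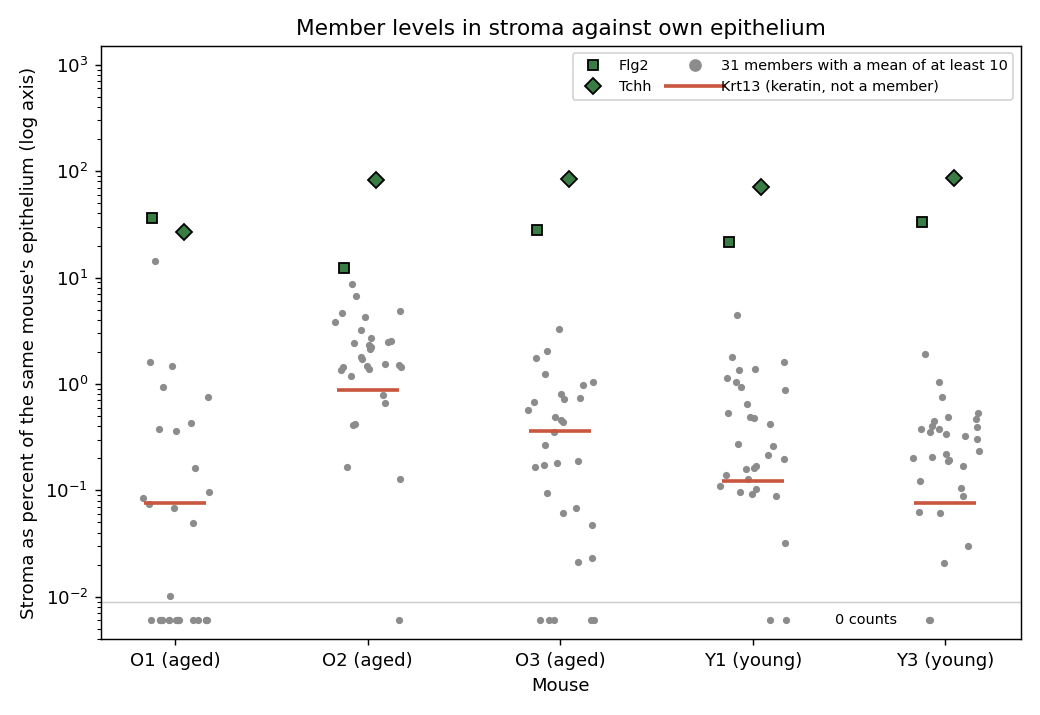
Each point is a member's stromal level as a percentage of the epithelium of the same mouse, on a log axis, for 5 mice, with members at 0 counts in stroma drawn at the bottom. Grey points are the 31 members with a mean of at least 10 normalized counts in epithelium, red bars mark Krt13, and Flg2 (squares) and Tchh (diamonds) lie above nearly all other points, between 12.4% and 85.3%.

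Genes that act with the envelope were described from lists. Of 8 genes for cross-linking and for other envelope parts, 8 were higher in epithelium, with the largest log2 fold changes in Tgm3, a transglutaminase (7.999 ± 0.54, SE, adjusted p = 1.24e-10, edgeR), in Cnfn (7.08 ± 0.98) and in Evpl, which encodes envoplakin (6.83 ± 0.74). Of 8 genes for filaggrin processing, 6 were tested and 6 were higher, led by the protease genes Asprv1 (7.30 ± 0.90), Prss8 (5.60 ± 0.43) and Casp14 (5.58 ± 0.73), while Padi3 and Hal did not pass the filter. Of 12 regulators, 11 were tested and 9 were higher, led by Zfp750 (7.29 ± 0.53), Grhl3 (6.27 ± 0.65) and Grhl1 (5.84 ± 0.39). Maf and Gata3 were not called, with log2 fold changes of -0.17 and -0.02. Of 7 other genes of the complex, 5 were tested and 5 were higher, led by Kprp (6.87 ± 0.56), Pglyrp3 (6.81 ± 0.51) and Prr9 (5.62 ± 0.74). Of the keratins of cornified skin, 1 of the 3 tested, Krt76, was called and Krt1 and Krt10 were not. In stroma Krt1 had 18.6 ± 37.3 and Krt10 14.1 ± 27.2 normalized counts (SD, n = 5). The sum of this list was 150.9 in the stroma of O2 and 1.75 to 13.0 in the other stromal libraries, against 17.5 to 247.9 in epithelium. The missing calls therefore depend on the stroma of O2.

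By age, 40 of 48 members passed the filter in the 9 epithelial libraries, and 0 were called with edgeR in a fit that adjusted for whether the mouse also had stroma sequenced. Over all 15859 genes, edgeR called 0.0126%. DESeq2 called 1 member, Sprr2a2, with 18 at an unadjusted p under 0.05. Of all genes it called 6 higher and 17 lower, with 323 higher and 324 lower at an unadjusted p under 0.05. With edgeR, 15 members were lower and 3 were higher in aged epithelium at an unadjusted p under 0.05, which is 18 of 40. Of all genes, 1.77% were lower and 1.44% higher at that level. The median log2 fold change, aged minus young, was -0.31 over the members and -0.0033 over all genes. Members share libraries, cells and in part reads, so that these 18 are not separate observations. In 0 of 40 members did every aged library lie below every young one, as 0.643% of all genes did.

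The 6 members with the smallest unadjusted p were all lower in aged epithelium. Values here are on the scale of the fit within epithelium, with aged mice in the order O1, O2, O3, OF5 and OM8 and young mice in the order Y1, Y3, YF5 and YM4. Sprr2a2 had 56.0, 58.7, 58.5, 35.7 and 38.8 normalized counts in aged mice and 73.0, 71.4, 73.4 and 56.2 in young mice. O2 and O3 exceeded YM4, so the groups overlapped by 1 young mouse, and the log2 fold change was -0.52 ± 0.13 (SE, unadjusted p = 0.00100, adjusted p = 0.610, edgeR). Sprr1b had 24.2, 21.6, 30.6, 19.7 and 28.7 in aged mice and 39.95, 28.8, 39.4 and 39.3 in young mice, where only O3 exceeded the lowest young mouse, Y3. Its log2 fold change was -0.53 ± 0.15 (SE, unadjusted p = 0.00219, adjusted p = 0.846, edgeR).

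Rptn had 3718, 4696, 4826, 1923 and 1918 normalized counts in aged mice and 5307, 5261, 3426 and 4508 in young mice. OF5 and OM8 were far below all others, the remaining 3 aged mice lay above YF5, and the log2 fold change was -0.62 ± 0.18 (SE, unadjusted p = 0.00257, adjusted p = 0.848, edgeR). Lce3a had 89.5, 116, 134, 95.9 and 71.8 in aged mice and 141, 135, 175 and 124 in young mice, with only O3 inside the young range. The log2 fold change was -0.53 ± 0.16 (SE, unadjusted p = 0.00443, adjusted p = 0.9996, edgeR).

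Sprr1a had 175, 199.9, 189, 167 and 160.1 in aged mice and 263, 199.6, 275 and 219 in young mice, so that O2 alone reached the lowest young value. Sprr2a1 had 129, 132, 123, 86.7 and 101 in aged mice and 157, 161, 158 and 110.0 in young mice, and O1, O2 and O3 exceeded YM4, the lowest young mouse. Their log2 fold changes were -0.43 ± 0.14 and -0.40 ± 0.13 (SE, unadjusted p = 0.00521 and 0.00727, adjusted p = 0.9996, edgeR). The 3 members higher in aged mice at an unadjusted p under 0.05 were Flg2 (0.68 ± 0.29), Lce1m (0.55 ± 0.24) and Sprr2i (0.92 ± 0.41), all of low level.

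By family, 19 of 20 Lce genes tested and 7 of 12 Sprr genes tested had a negative log2 fold change by age, where 50.5% of all genes did. Their medians were -0.33 and -0.36. The fused S100 genes were mixed: Rptn and Hrnr were lower in aged mice at an unadjusted p under 0.05, Hrnr by -0.32 ± 0.14, whereas Flg had 0.29 ± 0.41 and Tchh 0.26 ± 0.31. Lor had -0.15 ± 0.15, Crct1 -0.31 ± 0.20 and Ivl 0.50 ± 0.42, each with an unadjusted p above 0.05.

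The age difference was also computed within each set of mice. In O1, O2, O3, Y1 and Y3 alone, the median log2 fold change of 42 members tested was -0.04, with 26 negative and 16 positive, and 3 were lower at an unadjusted p under 0.05, where 1.31% of all genes were. In OF5, OM8, YF5 and YM4 alone, the median of 35 members was -0.64, with 31 negative, and 20 were lower at an unadjusted p under 0.05, against 3.59% of all genes. OF5 and OM8 both lay below YF5 and YM4 in 26 of 40 members, as in 18.2% of all genes, while O1, O2 and O3 all lay below Y1 and Y3 in 4 of 40 members, against 8.11% of all genes. No member was called by edgeR in either set.

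Whether the difference itself differed between these sets of mice was tested as an interaction of age with the set of mice, chosen after the data had been seen. It was called in 0 of 40 members, with a smallest adjusted p of 0.472 (edgeR). At an unadjusted p under 0.05 it was negative in 11 members and positive in 0. Of all 15859 genes, 684 (4.31%) were negative and 752 positive at that level. The member with the smallest p was Lce1l, at -1.51 ± 0.34 (SE). Rptn had -0.26 ± 0.18 in the 5 mice with both layers and -0.995 ± 0.29 in the other 4 (log2 fold change ± SE).

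**Figure D4:**
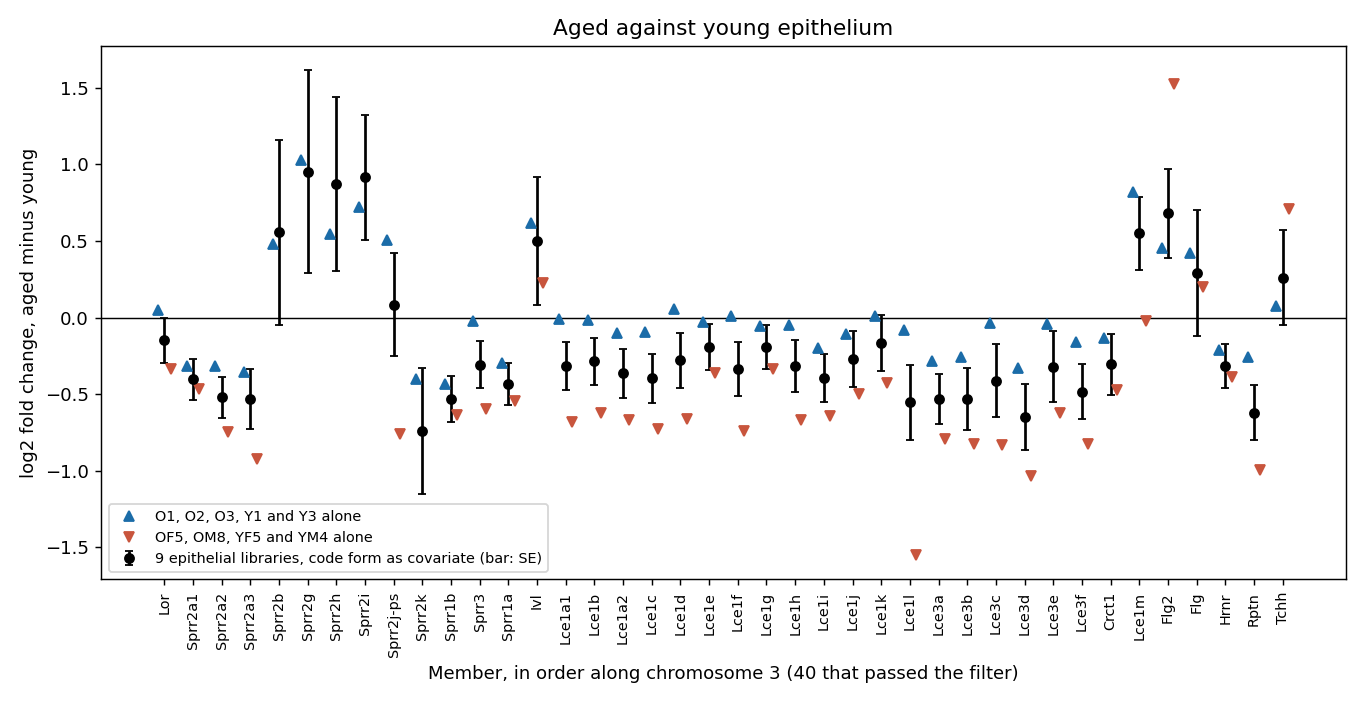
Log2 fold change of aged minus young epithelium for the 40 members tested, in order along chromosome 3. Black points with SE bars use all 9 libraries, blue triangles the 5 mice with both layers and red triangles the 4 mice with epithelium only, which are missing where a member did not pass the filter. Most Lce and Sprr points lie below 0, the red triangles lower than the blue (medians -0.64 and -0.04), and SE bars are widest for the low Sprr2 genes.

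Depth and the keratinocyte markers also differed between these sets of mice. Member levels were higher in the 5 mice with both layers than in the other 4 in 34 of 38 members, with a median ratio of 1.29, where 65.2% of all genes tested were higher, with a median ratio of 1.15. The summed level of the 4 suprabasal markers was 40068 to 51885 normalized counts in the first set and 16298 to 26568 in the second, and that of the 6 basal markers was 1752 to 2512 and 835 to 1462. The other marker lists overlapped between the sets. The skeletal muscle sum was 52.3 to 413 in the first set, and in the second 671 in YF5 and 8.27 to 19.6 in OF5, OM8 and YM4. By age, the suprabasal markers had a median log2 fold change of -0.18 with 0 of 4 called. The basal markers had -0.16 with 0 of 6 called, and the 6 skeletal muscle markers -1.02 with 0 called. Log2 ratios of mean levels, aged over young, were also taken within each set, with 0.5 added to each mean. In OF5, OM8, YF5 and YM4 their medians were -0.52 for basal markers, -0.45 for suprabasal markers and -0.67 for members. In O1, O2, O3, Y1 and Y3 they were 0.09, -0.03 and -0.05. Col3a1, Col1a1 and Col1a2 of the 6 fibroblast markers were lower and Cd74 of the 3 immune markers tested was higher in aged mice at an unadjusted p under 0.05, with 0 called (edgeR). The part of these in the age difference of the members was not tested.

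The other genes of the pathway showed no call by age. Among the 8 cross-linking genes Anxa1 and Cnfn, among the 6 filaggrin processing genes tested Blmh and Asprv1, among the 11 regulators tested Prdm1 and Maf, and among the 6 other genes of the complex Kprp were lower in aged epithelium at an unadjusted p under 0.05. Ovol1, a regulator, was the only gene of these lists higher at that level. Blmh, which encodes a hydrolase that completes the breakdown of filaggrin, had a log2 fold change of -0.46 ± 0.13 and Prdm1 of -0.43 ± 0.13 (SE, unadjusted p = 0.00214 and 0.00305, adjusted p = 0.846 and 0.930, edgeR). Tgm1 and Tgm3, which form the cross-links, had -0.05 ± 0.13 and -0.23 ± 0.14.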

How the data were processed

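Reads were aligned by the authors to GRCm38.p6 with Rsubread and counted per gene with featureCounts; the deposited values are raw counts, 1 table per library. The annotation release, strand setting and treatment of reads matching several genes are not given in the sources used here. Samples were grouped by layer, age and mouse from the sample labels. The quasi-likelihood test of edgeR 4.0.16 was run in R 4.3.3 on genes kept by filterByExpr (minimum count 10), after TMM scaling, with Benjamini-Hochberg adjustment over all genes and a threshold of 0.05. Layers were compared over 14 libraries without covariates, age within 9 epithelial libraries with a covariate for the code form, which separates O1, O2, O3, Y1 and Y3 from OF5, OM8, YF5 and YM4. SE is the log2 fold change divided by the square root of F. The 5 mice with both layers pair by animal, although residuals of their layers correlated weakly (r from 0.0595 to 0.110). Libraries of a group differed by more than sampling noise. The procedure was also run on simulated counts, with the same dispersion in every gene. Apart from the genes set to change, these counts had the same mean profile in every library. They therefore do not test differences in composition between the sets of mice.

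Exons came from GENCODE M21, in which 53292 of 55291 symbols were found, and promoter windows from RefSeq. The members, the lists and the rule for named genes (the 6 members with the highest level per kb in Lce and in Sprr, all others of the remaining groups, the 5 largest and 5 smallest differences between layers, members not called, the 6 smallest p by age, and the 3 largest differences of each list) were chosen with earlier results of these data known. Alternatives were DESeq2 1.42.0, other filters, normalization and covariates, subsets, mouse as a block, and leaving out each mouse. Tests cover the spread between mice and counting error only.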

Additional observations from a re-analysis of the deposited data

Results flagged for a closer look

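Each of the 40 members tested by age was examined in the 5 aged and in the 4 young epithelial libraries, 80 groups in all, for a library far from the rest of its group on the log2 scale; chance alone marks about 1 in 20 groups. Of these, 5 were marked. Flg2 was high in O2, at 12.3 normalized counts, against 5.52 to 6.55 in the other 4 aged mice. Sprr2a1 and Sprr2a2, which share nearly all their sequence, were low in YM4, at 110.0 and 56.2, against 157 to 161 and 71.4 to 73.4 in the other 3 young mice. Sprr1b was low in Y3, at 28.8, against 39.3 to 39.95. Lce1b was high in YF5, at 53.8, against 45.7 to 46.7.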

How the results depend on the processing

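Between layers, the count of members higher in epithelium stayed within 27 to 40 under 15 of 16 alternatives and was 3 of 3 tested when every library had to hold 10 counts, which few members reach in stroma; none was lower in any. The 27 is that of DESeq2, which gave no adjusted p for 9 members. Leaving out each mouse gave 35 to 37 members and a median log2 fold change from 6.51 to 7.69, the highest without O2. In the paired fit, with mouse as a replicate block, 36 members were higher, and the median was 7.45 against 6.89 without the block in the same 10 samples. Besides Sprr2i and Sprr2h, Tchh changed its call: it was called without the filter (log2 fold change 1.06) and without YM4 (0.98).

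By age, 0 members were called under most alternatives, 2 without the filter (Rptn and Lce3d) and 1 with DESeq2. Of all genes, 12 were higher and 24 lower of 46496 without the filter, and 6 higher and 17 lower of 15859 with DESeq2. The 18 members at an unadjusted p under 0.05 became 28 without the filter, 8 without the covariate and 5 in the mice with both layers. They became 12 with the number in the mouse code as a replicate block in 6 samples, numbers that pair nothing in the residuals (r from -0.327 to -0.0422). Of all genes at that level, 334 were higher and 628 lower of 46496 without the filter, and 106 and 132 of 15107 without the covariate. In the mice with both layers they were 234 and 230 of 17585, and with that block 159 and 202 of 15388. Leaving out each mouse gave 10 to 23, with 10 without OM8 or without YF5, 0 calls each time, and a median of -0.40 to -0.22. Of all genes at that level, 203 were higher and 184 lower of 16950 without OM8, and 201 and 223 of 17162 without YF5. The 23 members came without O3, where they were 226 and 341 of 14922. Without Y3, which gave 19 members, they were 462 and 470 of 15350, the most of these fits. The median was -0.64 in the mice with epithelium only, where Lce1m turned to -0.021. The cause was not tested. In the 4 shallow libraries 3 counts amount to 0.707 to 1.25 normalized counts, near the level of the low Sprr2 members.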
